A study of Mus with 8 samples.

Results

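A set of 9 transcription factors that set the fate of monocytes was followed in bone marrow monocytes embedded in stiff hydrogels: Irf1, Irf4, Irf5, Irf8, Spi1, Cebpa, Cebpb, Klf4 and Batf3. They were taken by Ensembl ID, as a named list, out of the 17640 gene IDs in the count table. All 9 passed the low-count filter, which kept 14785 IDs. The cells came from C57BL/6 mice of 2 genotypes. Control mice carried Vav-iCre, a Cre recombinase driven in the blood lineage, and the mutant mice carried Vav-iCre together with a knock-in of the activating Jak2 V617F allele, which is found in myeloproliferative neoplasms. All groups therefore carry the Cre, and ages were not given. Per the labels' protocols, the medium of every culture held 200 ng/mL of the cytokine IL4, 100 ng/mL of GM-CSF and prostaglandin E2 at 100 ng/mL, and cells were taken at day 3, in either a viscous gel (VLVG in the titles) or an elastic one (NbTz). There is no culture without these factors and no culture outside a gel. The 4 groups held 2 libraries each, which makes 8 in all.

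These factors act in combination. Spi1 encodes PU.1, the ETS factor that opens myeloid enhancers, and C/EBP alpha, encoded by Cebpa, acts with it in the commitment of progenitors to the granulocyte and monocyte lineages. IRF8 directs progenitors towards monocytes and type 1 conventional dendritic cells, where BATF3 is its partner, whereas IRF4 is induced by IL-4 and drives the dendritic cell fate of monocytes cultured with GM-CSF and IL-4. KLF4 supports monocyte differentiation, C/EBP beta is used by mature and alternatively activated macrophages, and IRF1 and IRF5 carry interferon and inflammatory responses.

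Libraries held between 30632355 and 38408851 counts, and single counts of the 9 factors ran from 468 to 19687, so spread between libraries and not counting error limits these values. Titles end in a number that a viscous and an elastic library of the same genotype share. The labels do not say what the number marks, so the p-values measure library-to-library spread, and how much of it is technical is not known. These numbers are called W1 and W2 (control) and J1 and J2 (Jak2 V617F) here. Both W1 libraries stood apart from the other 6 on the first principal component of all genes (scores −78.2 and −69.4, against 10.9 to 37.1). Results that rest on them are given with and without them. In bulk RNA, fewer cells of a type and less RNA per cell cannot be told apart. The table pairs no IDs with names, so markers of other cell types, and the monocyte label itself, were not tested beyond these factors. Levels are given in CPM, counts per 1000000 counts of the TMM-scaled library. CPM is not corrected for transcript length, so levels are compared between libraries for a gene and never between genes.

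**Figure D1:**
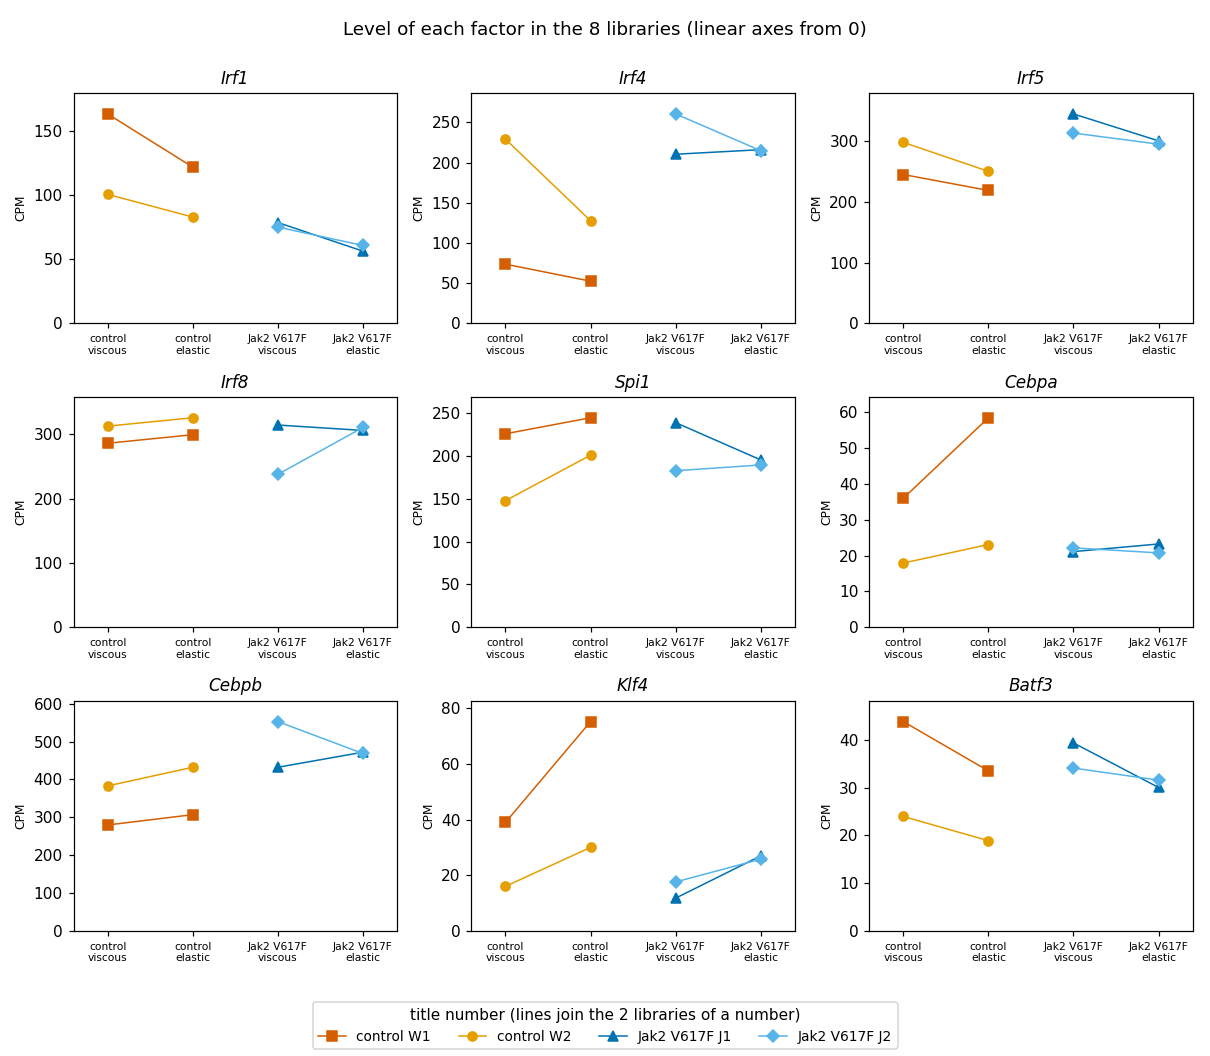
Level of each factor (CPM, linear axes from 0) in the 8 libraries, with the groups along the horizontal axis, 1 marker per library and a line joining the 2 libraries that share a title number. The control W1 libraries lie far from the W2 libraries for Irf4, Cebpa and Klf4, and the slope from viscous to elastic gel points up for Klf4 and down for Irf1, Irf5 and Batf3 in all 4 numbers.

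Irf4 (ENSMUSG00000021356, chr13:30749233-30766981, GRCm38.p6) differed 3.11-fold between the control libraries in viscous gel. In control cells it stood at 229 CPM (W2) and 73.7 CPM (W1) in viscous gel, and at 128 CPM (W2) and 52.6 CPM (W1) in elastic gel. The Jak2 V617F values were 210.3 CPM (J1) and 260.4 CPM (J2) in viscous gel, and 216 CPM (J1) and 215 CPM (J2) in elastic gel. The 4 Jak2 V617F libraries thus lay within a narrow range, and the viscous control library W2 lay inside that range while the other 3 control libraries lay below it. Elastic against viscous gel gave a log2 fold change of −0.44 (SE 0.41, edgeR adjusted p = 0.944) over both genotypes, and 0.08 without the viscous W2 library. That last fit keeps W2 in elastic gel only, so the gap between W1 and W2 enters its value. With both W1 libraries left out the value was −0.48, and with both W2 libraries left out −0.31. By title number, elastic minus viscous was −0.49 (W1), −0.84 (W2), 0.04 (J1) and −0.28 (J2). Jak2 V617F against control, on counts summed per number, gave 0.90 (SE 0.51, adjusted p = 0.795), which is a 1.87-fold higher mean with a 95% interval of 0.715-fold to 4.90-fold. Neither comparison passed the test. The order of the group means, from Jak2 V617F viscous and Jak2 V617F elastic to control viscous and control elastic, had no step larger than the larger SD of the 2 groups beside it, and the libraries of neighbouring groups overlapped at each step.

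Irf8 (ENSMUSG00000041515, chr8:120736358-120756694) was the steadiest of the 9. It ran from 237.5 CPM to 325 CPM over all libraries, and 82.0% of the tested IDs had a larger SD over the 8 log2 values. Means were 299 ± 18.8 CPM (SD, n = 2) in control viscous, 312 ± 18.6 in control elastic, 276 ± 54.2 in Jak2 V617F viscous and 308 ± 3.23 in Jak2 V617F elastic gel. The low end was a single library, Jak2 V617F J2 in viscous gel, and all 4 groups overlapped. The matrix value was a log2 fold change of 0.11 (95% interval −0.18 to 0.40, adjusted p = 0.953), and the summed genotype value was −0.06 (−0.46 to 0.34, adjusted p = 0.932). For this factor both intervals exclude a 2-fold difference in either direction. The same held for Irf5 (matrix −0.45 to 0.09, summed genotype −0.09 to 0.73) and Spi1 (−0.35 to 0.47 and −0.54 to 0.53).

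Irf1 (ENSMUSG00000018899, chr11:53770014-53778374), a mediator of interferon signals, was the one member whose genotypes did not overlap. In viscous gel it stood at 101 CPM (W2) and 163 CPM (W1) in control cells and at 78.6 CPM (J1) and 75.0 CPM (J2) in Jak2 V617F cells. In elastic gel the control values were 82.8 CPM (W2) and 122 CPM (W1), and the Jak2 V617F values 56.3 CPM (J1) and 60.7 CPM (J2). All 4 control libraries lay above all 4 Jak2 V617F libraries; of all IDs tested, 3.39% were lower in Jak2 V617F cells without overlap. The summed comparison gave a log2 fold change of −0.78 (SE 0.24, 95% interval −1.43 to −0.13), a 1.72-fold lower level in Jak2 V617F cells. Its unadjusted p was 0.0287 and its edgeR adjusted p 0.792, so it did not pass. Within viscous gel the value was −0.78 (SE 0.27, adjusted p = 0.664) and within elastic gel −0.81 (SE 0.27, adjusted p = 0.937). Without number W1 the summed value was −0.42.

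Irf1 also stood lower in elastic than in viscous gel in each number, by a log2 difference of −0.48 to −0.28. Over both genotypes the log2 fold change was −0.38 (SE 0.19, 95% interval −0.83 to 0.08, adjusted p = 0.855), and the sides overlapped: both elastic control libraries lay above both viscous Jak2 V617F libraries. Among Jak2 V617F libraries, where replicates lay close together, the viscous and elastic libraries did not overlap.

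Irf5 (ENSMUSG00000029771, chr6:29526130-29541869), which carries Toll-like receptor signals to cytokine genes, differed little. Viscous gel held 298 CPM (W2) and 245 CPM (W1) in control cells and 345 CPM (J1) and 313 CPM (J2) in Jak2 V617F cells. Elastic gel held 250.2 CPM (W2) and 219 CPM (W1) in control cells, against 300.4 CPM (J1) and 295 CPM (J2) in Jak2 V617F cells. Jak2 V617F libraries were above control libraries within each gel, but the viscous W2 library overlapped the elastic Jak2 V617F libraries. The summed genotype value was 1.25-fold higher in Jak2 V617F cells (log2 fold change 0.32, SE 0.15, adjusted p = 0.792), and the matrix value was 1.13-fold lower in elastic gel (−0.18, SE 0.11, adjusted p = 0.914).

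Spi1 (ENSMUSG00000002111, chr2:91082374-91115759) overlapped between the gels in both genotypes. Control values were 148 CPM (W2) and 226 CPM (W1) in viscous gel and 201 CPM (W2) and 244 CPM (W1) in elastic gel. Jak2 V617F values were 239 CPM (J1) and 183 CPM (J2) in viscous gel and 195 CPM (J1) and 189 CPM (J2) in elastic gel. The lowest and the highest level were both in control cells, and in elastic gel alone both control libraries lay above both Jak2 V617F libraries. Log2 fold changes were 0.06 (95% interval −0.35 to 0.47) for the matrix and −0.005 (−0.54 to 0.53) for the summed genotypes, with adjusted p = 0.987 and 0.997. The sign of the second value turned without the low-count filter and under limma-voom.

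The 2 C/EBP genes stood in opposite order between the control numbers. Cebpa (ENSMUSG00000034957, chr7:35119293-35121928) was at 17.9 CPM (W2) and 36.0 CPM (W1) in viscous gel and at 23.1 CPM (W2) and 58.4 CPM (W1) in elastic gel in control cells. All 4 Jak2 V617F libraries lay between 20.8 and 23.2 CPM, beside the W2 libraries and below both W1 libraries. Cebpb (ENSMUSG00000056501, chr2:167688915-167690432) stood at 383 CPM (W2) and 280 CPM (W1) in viscous and at 432 CPM (W2) and 307 CPM (W1) in elastic control gel, and at 432 to 553 CPM in the Jak2 V617F libraries. Within each gel both Jak2 V617F libraries were above both control libraries for Cebpb. The summed genotype values were a log2 fold change of −0.60 (SE 0.41, adjusted p = 0.801) for Cebpa and 0.47 (SE 0.22, adjusted p = 0.792) for Cebpb. Matrix values were 0.31 (SE 0.33, adjusted p = 0.953) and 0.05 (SE 0.17, adjusted p = 0.991), and none of the 4 passed. Without number W1 the genotype value was 0.09 for Cebpa and 0.25 for Cebpb.

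Klf4 (ENSMUSG00000003032, chr4:55527137-55532475) had the largest matrix value of the 9. In control cells it stood at 16.1 CPM (W2) and 39.0 CPM (W1) in viscous gel and at 30.1 CPM (W2) and 75.2 CPM (W1) in elastic gel. Jak2 V617F cells held 11.8 CPM (J1) and 17.7 CPM (J2) in viscous gel and 27.0 CPM (J1) and 25.8 CPM (J2) in elastic gel. Each number was higher in the elastic than in the viscous gel, by 1.46-fold (J2) to 2.27-fold (J1), while the viscous W1 library lay above the elastic libraries of the other numbers. Over both genotypes the log2 fold change was 0.89 (SE 0.38, 95% interval −0.03 to 1.80), or 1.85-fold higher in elastic gel. Its unadjusted p was 0.0551 and its edgeR adjusted p 0.800. Only 6.10% of all IDs had a larger absolute matrix value, but by p it ranked at 1016 of 14785. In control cells alone the value was 0.93 (SE 0.54, adjusted p = 0.985) and in Jak2 V617F cells 0.84 (SE 0.54, adjusted p = 1). Leaving out a single W1 library moved it most: over both genotypes it was 0.49 without the elastic and 1.28 without the viscous W1 library. In control cells it was 0.13 and 1.71 in turn. Such fits keep W1 in 1 gel only, so the gap between W1 and W2 enters these values. With both W1 libraries left out the value over both genotypes was 0.87, and with both W2 libraries left out it was 0.89.

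The genotype value of Klf4 was −0.95 on summed counts (SE 0.44, edgeR adjusted p = 0.792), a 1.93-fold lower level in Jak2 V617F cells. As a ratio of Jak2 V617F to control this is 0.518, with a 95% interval of 0.227 to 1.18. In elastic gel the genotypes did not overlap, and in viscous gel they did. Without number W1 the value was −0.19, so most of this difference lay between W1 and the Jak2 V617F libraries.

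Batf3 (ENSMUSG00000026630, chr1:191098414-191108943) stood at 24.0 CPM (W2) and 43.8 CPM (W1) in viscous and 18.9 CPM (W2) and 33.5 CPM (W1) in elastic control gel. The Jak2 V617F values were 39.3 CPM (J1) and 34.1 CPM (J2) in viscous gel and 30.0 CPM (J1) and 31.6 CPM (J2) in elastic gel. Each number was lower in elastic gel, by a log2 difference of −0.39 to −0.11, and the control libraries spanned the Jak2 V617F libraries in both gels. The matrix value was −0.31 (SE 0.25, adjusted p = 0.926) and the summed genotype value 0.18 (SE 0.31, adjusted p = 0.901). The control numbers again decided the second: it was 0.67 without W1 and −0.18 without W2.

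Elastic against viscous gel was the first comparison of the design, and it called none of the 9 factors. Over both genotypes edgeR's quasi-likelihood test with Benjamini-Hochberg adjustment called 0 of 9 at an adjusted p under 0.05, where 0% of all 14785 IDs were called, and 0 of 9 had an unadjusted p under 0.05, against 6.28% of all IDs. DESeq2 also called 0 of 9, against 0.906% of all IDs. In control cells edgeR called 0 of 9 (0% of all IDs) with 0 at an unadjusted p under 0.05 (4.85% of all IDs), and DESeq2 called 0 (0.237% of all IDs). In Jak2 V617F cells the counts were likewise 0 of 9 by edgeR (0% of all IDs), 0 unadjusted (3.08%) and 0 by DESeq2 (0.237%). Of the 9 log2 values over both genotypes 5 were above 0 and 4 below, with a median of 0.05, against −0.004 over all IDs. These fits do not pair libraries by title number. With the number as a fixed block, edgeR called 0 of 9 over both genotypes (0.0338% of all IDs). In that fit 5 of 9 had an unadjusted p under 0.05, against 11.9% of all IDs.

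The 4 elastic libraries were separated from the 4 viscous ones for 0 of the 9 factors, against 3.73% of all IDs. In control cells the gels did not overlap for 0 of 9, against 26.9% of all IDs. In Jak2 V617F cells they did not overlap for 4 of 9, Klf4 higher and Irf1, Irf5 and Batf3 lower in elastic gel, against 40% of all IDs, so that share was near the background. Taken by title number, Klf4 was higher in the elastic library in all 4 numbers, and Irf1, Irf5 and Batf3 were lower in all 4. These are 4 of the 9 factors, and 21.5% of all IDs had the same sign in all 4 numbers. Irf4 was lower in 3 of 4, and Irf8, Spi1, Cebpa and Cebpb were higher in 3 of 4.

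**Figure D2:**
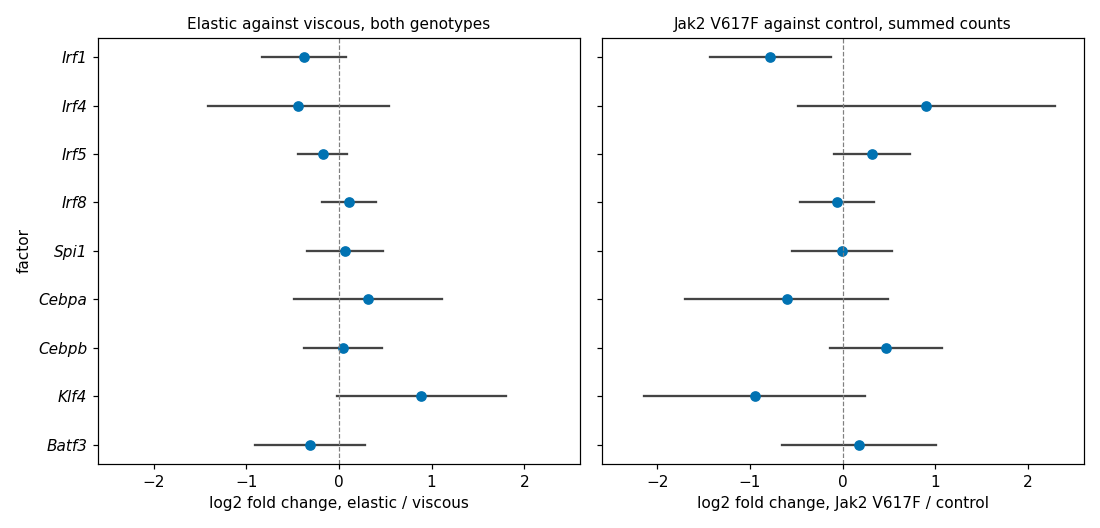
Log2 fold change of each factor (point) with its 95% interval (line) from edgeR, for elastic against viscous gel over both genotypes (left, 8 libraries) and for Jak2 V617F against control on counts summed per title number (right, 4 sums). The intervals of Klf4 and Irf4 are widest on the left, and on the right the interval of Irf1 (−1.43 to −0.13) lies below 0 without passing the adjusted test.

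Jak2 V617F against control was compared on summed counts and within each gel. On summed counts edgeR called 0 of 9 (0% of 15239 IDs), 1 of 9, Irf1, had an unadjusted p under 0.05 (5.22% of all IDs), and DESeq2 called 0 (0.696% of all IDs). In viscous gel edgeR called 0 of 9 (0% of all IDs), with Irf1 alone at an unadjusted p under 0.05 (7.31% of all IDs), and in elastic gel also 0 of 9 (0%), again with Irf1 alone at that level (4.42%). DESeq2 called 0 of 9 in both gels, against 0.413% and 0.298% of all IDs. The libraries of the genotypes did not overlap for 3 of 9 factors in viscous gel, against 38% of all IDs: Irf5 and Cebpb were higher and Irf1 lower in Jak2 V617F cells. In elastic gel 6 of 9 did not overlap, against 36.1% of all IDs: Irf4, Irf5 and Cebpb were higher, and Irf1, Spi1 and Klf4 lower. Over both gels together 1 of 9 did not overlap, Irf1, against 6.89% of all IDs.

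These genotype values depended on which control number stood for control cells. With W1 alone as control, edgeR called 5 of the 9 factors on summed counts: Irf1 (−1.06, adjusted p = 0.00389), Irf4 (1.84, adjusted p = 0.00251), Cebpa (−1.06, adjusted p = 0.00398), Cebpb (0.74, adjusted p = 0.0274) and Klf4 (−1.44, adjusted p = 0.00318). The same fit called 2664 of all IDs (16.6%), and it takes its spread from the Jak2 V617F sums only. With W2 alone as control it called 0 of 9 (0% of all IDs), and the values were −0.42 for Irf1, 0.34 for Irf4, 0.09 for Cebpa, 0.25 for Cebpb and −0.19 for Klf4. By gel, W1 alone gave 3 called factors of 9 in viscous gel (Irf1, Irf4 and Klf4), against 4.98% of all IDs, and 4 in elastic gel (these and Cebpa), against 7.79%. W2 alone gave 0 of 9 in both, with 0% of all IDs called. Cebpa thus had the opposite sign with W2 alone. Irf1, Irf4, Cebpb and Klf4 kept their sign on summed counts with either number as control.

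The difference between the 2 matrix effects asks whether the Jak2 mutation alters the response to the gel. edgeR called 0 of 9 factors (0% of all IDs), 0 had an unadjusted p under 0.05 (1.72% of all IDs), and DESeq2 called 0 (0.0135% of all IDs). The largest value was that of Irf4, whose matrix value was −0.75 in the control groups and −0.13 in the Jak2 V617F groups, a difference of 0.62 (SE 0.82, 95% interval −1.34 to 2.58). Cebpa followed, with 0.60 in the control groups, 0.02 in the Jak2 V617F groups and a difference of −0.57 (95% interval −2.17 to 1.02). For Klf4 the difference was −0.09 (95% interval −1.91 to 1.72). In this fit each of these 3 intervals holds a 2-fold difference either way.

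**Figure D3:**
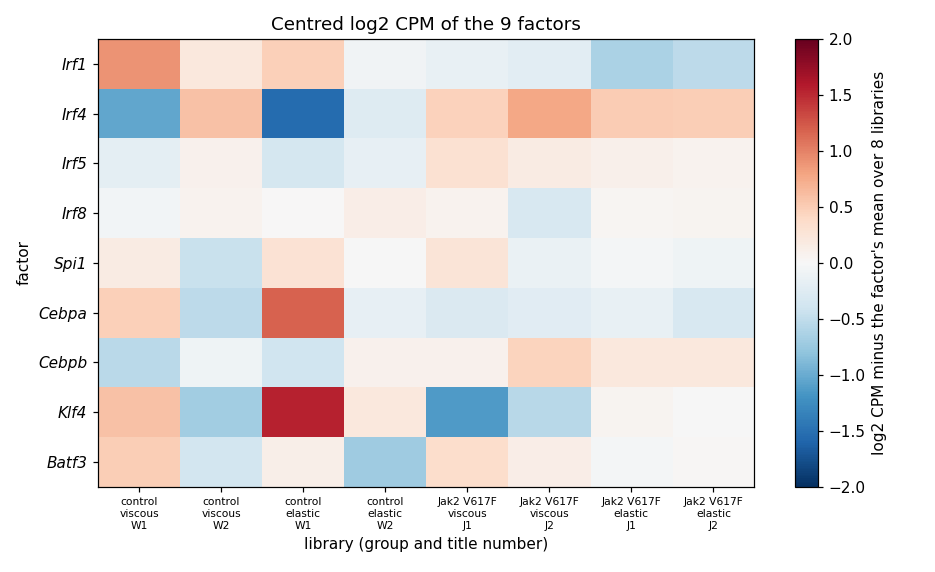
Log2 CPM of the 9 factors (rows) in the 8 libraries (columns, by group and title number), each row centred on its mean over the libraries; red is above and blue below that mean. The 2 control W1 columns are lowest for Irf4 and highest for Cebpa and Klf4. Among the 4 Jak2 V617F columns Klf4 is lower, and Irf1, Irf5 and Batf3 are higher, in viscous than in elastic gel.

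All factors but Irf8, 8 of 9, differed more between the control numbers than between the Jak2 V617F numbers in each gel, as did 48.1% of all IDs. In viscous gel W1 was 3.11-fold below W2 for Irf4, and in elastic gel 2.43-fold below. Cebpa was 2.00-fold and 2.53-fold higher in W1, Klf4 2.42-fold and 2.50-fold, Batf3 1.83-fold and 1.77-fold, and Irf1 1.62-fold and 1.47-fold, in viscous and elastic gel in turn. Cebpb was 1.37-fold and 1.41-fold lower in W1. The median absolute difference between W1 and W2 over all IDs was 1.27-fold in both gels, and 8.25% of IDs differed more than Irf4 in viscous gel. The Jak2 V617F numbers lay closer over all IDs too, with a median absolute difference between J1 and J2 of 1.17-fold in viscous and 1.11-fold in elastic gel. Among the 9 the largest was 1.49-fold in viscous gel (Klf4) and 1.12-fold in elastic gel (Cebpa).

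Over the 8 libraries the profiles fell between 2 extremes. The root mean square difference of centred log2 CPM was greatest between Irf4 and Klf4 (1.53) and smallest between Irf5 and Cebpb (0.21). Klf4 and Cebpa were each other's nearest members (0.40), Irf8 and Spi1 likewise (0.25), and Irf4 was nearest to Cebpb (0.56). Irf1 was nearest to Cebpa (0.43) and Batf3 to Spi1 (0.31). The profiles were not scaled to equal spread, so factors that vary little lie close together whatever their pattern. The SD over the 8 log2 values was 0.14 for Irf8 and 0.24 for Spi1, against 0.83 for Klf4 and 0.56 for Cebpa. The distance between Irf8 and Spi1 therefore does not show a shared pattern. These distances are descriptions over libraries that share title numbers, and both W1 libraries enter each of them.

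Ratios of counts within a library need no scaling between libraries. Their absolute size depends on transcript lengths, so only their differences between libraries are read. The log2 ratio of Irf4 to Irf8 was −0.45 (W2) and −1.96 (W1) in viscous and −1.35 (W2) and −2.51 (W1) in elastic control gel. The Jak2 V617F libraries gave −0.58 (J1) and 0.13 (J2) in viscous gel and −0.50 (J1) and −0.53 (J2) in elastic gel. The viscous W2 library thus lay among the 4 Jak2 V617F libraries, and the other 3 control libraries lay below them. The log2 ratio of Klf4 to Irf4 was −3.83 (W2) and −0.92 (W1) in viscous and −2.09 (W2) and 0.52 (W1) in elastic control gel. The Jak2 V617F libraries gave −4.15 (J1) and −3.88 (J2) in viscous and −3.00 (J1) and −3.05 (J2) in elastic gel. The elastic library of each number had the higher Klf4 to Irf4 ratio. For Cebpb to Cebpa the W1 libraries (2.96 in viscous and 2.39 in elastic gel) lay below the other 6, which ran from 4.23 to 4.64.

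**Figure D4:**
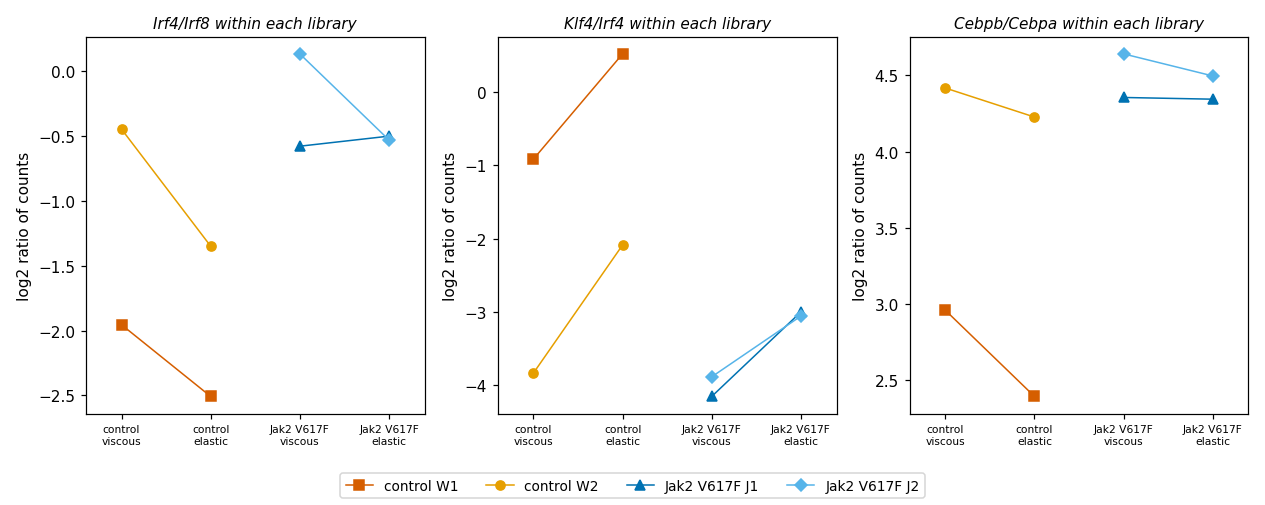
Log2 ratio of the counts of 2 factors within each library (vertical axes, not starting at 0), by group, with a line joining the libraries of a title number. The Klf4 to Irf4 ratio is higher in the elastic library of all 4 numbers, and the Cebpb to Cebpa ratio sets both W1 libraries apart from the other 6.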

How the data were processed

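RNA was sequenced from 8 hydrogel cultures of mouse monocytes. The authors deposited counts, whole and not normalized, for each Ensembl gene ID; each per-library file was checked and matched its column of the series table. The submitters' processing notes name Salmon, DESeq2 and the build GRCm38. Versions, the step from transcripts to genes and any use of strand are not given in the sources used here. Symbols came with the list of 9 members. Members and lists were chosen with earlier results of these data known, and all 9 are named whatever their values. The reference gene table (GRCm38.p6) gives an Ensembl ID for 0 of 49997 genes, so positions were matched by symbol, and the lists of other factors and of cell type markers were not tested.

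Counts were fitted with edgeR 4.0.16 in R 4.3.3: filterByExpr, TMM scaling, a quasi-likelihood model of 4 group means over 8 libraries, two-sided tests, and Benjamini-Hochberg adjustment over all IDs kept (14785, or 15239 for counts summed per title number). SE come from the test statistic, and a prior count of 2 was used for log2 CPM. Replicates differed beyond counting noise in every group (chi-square over its degrees of freedom 19.1 or more). Alternatives were scaling by DESeq2 size factors or upper quartiles, no filter or 50 counts in 2 libraries, limma-voom (limma 3.58.1), the Wald test of DESeq2 1.42.0, left-out libraries or numbers, a block on the title number, fits of 4 libraries, and libraries in place of sums. The fits were tested on 5 simulated sets each, with libraries drawn as independent. The fit of the matrix over both genotypes recovered 37.3% of 2-fold and 73.6% of 4-fold changes, with 5.34% of calls false. The summed genotype fit recovered 5.76% and 63.8%, with 14.4% of calls false. A factor that was not called may thus still differ 2-fold, unless its interval excludes that. matplotlib 3.10.9 drew the figures (Python 3.11.15).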

Additional observations from a re-analysis of the deposited data

How the results depend on the processing

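No factor was called in 116 of 119 alternative counts; the other 3 all leave out control number W2 and take W1 as the only control: 3 factors in viscous gel (771 IDs), 4 in elastic gel (1206 IDs) and 5 on summed counts (0 to 5 factors and 0 to 2664 IDs with 1 number left out). Counts over all IDs, 0 in each comparison, became 134 (matrix, both genotypes), 35 (control), 35 (Jak2 V617F), 2 (difference), 61 (genotype, viscous), 44 (elastic) and 106 (summed) with DESeq2. For matrix over both genotypes they were 1 without a filter, 1 with the stricter filter, 2 without W1 and 1 without W2; in control cells 1 without W2; in Jak2 V617F cells 1 without W1, 1 without W2 and 1 on the 4 libraries compared; and 2 for genotypes averaged over 8 libraries. Under the other scalings the median over all IDs shifted by no more than 0.022 (log2).

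Same-numbered libraries deviated from their group means with a correlation of 0.53 (control) and −0.089 (Jak2 V617F). The random block of limma-voom gave a correlation of 0.38. The main fits did not take the number as a pairing, and the labels do not say what it marks. The spread between numbers therefore enters the SE of the main matrix values. With the number as a fixed block edgeR called 0 of 9 factors and 5 IDs (0.0338%) for matrix over both genotypes. There 5 factors had an unadjusted p under 0.05 in place of 0, while that share of all IDs went from 6.28% to 11.9%: the values were 0.90 for Klf4 (SE 0.12, adjusted p = 0.0995), −0.37 for Irf1 (adjusted p = 0.19), −0.39 for Irf4 (adjusted p = 0.257), −0.31 for Batf3 (adjusted p = 0.282) and 0.28 for Cebpa (adjusted p = 0.366). For the difference of matrix effects the block gave narrower intervals: 0.55 for Irf4 (95% interval 0.024 to 1.07), −0.51 for Cebpa (−1.002 to −0.022) and −0.056 for Klf4 (−0.67 to 0.56). Unadjusted p values were 0.0431 for both Irf4 and Cebpa, the 2 of 9 under 0.05 (3.59% of all IDs), and adjusted p = 1 for each of the 3; the Klf4 interval no longer holds a 2-fold difference. As a random block limma-voom called 0 of 9 factors, 2 IDs over both genotypes and 1 ID in control cells.

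Of 1071 alternative values of single factors 60 had the opposite sign, 50 of them with 1 library, or 1 number of the summed counts, left out. Their log2 ranges with 1 left out follow. For matrix over both genotypes they were −0.83 to 0.085 (Irf4), −0.073 to 0.23 (Spi1), −0.097 to 0.61 (Cebpa) and −0.087 to 0.17 (Cebpb). In control cells they were −0.67 to 0.026 (Irf1), −1.52 to 0.30 (Irf4), −0.015 to 0.59 (Spi1), −0.22 to 1.19 (Cebpa), −0.11 to 0.41 (Cebpb) and −0.84 to 0.13 (Batf3). In Jak2 V617F cells they were −0.27 to 0.034 (Irf4), −0.029 to 0.38 (Irf8), −0.31 to 0.075 (Spi1), −0.059 to 0.11 (Cebpa) and −0.23 to 0.12 (Cebpb). For the difference of matrix effects they were −0.42 to 0.28 (Irf1), −0.42 to 1.40 (Irf4), −0.087 to 0.20 (Irf5), −0.094 to 0.31 (Irf8), −1.16 to 0.24 (Cebpa), −0.47 to 0.042 (Cebpb), −0.87 to 0.71 (Klf4) and −0.38 to 0.58 (Batf3). For genotype in viscous gel they were −0.33 to 0.076 (Irf8), −0.093 to 0.51 (Spi1), −0.73 to 0.27 (Cebpa) and −0.25 to 0.62 (Batf3), and in elastic gel −0.080 to 0.045 (Irf8) and −0.12 to 0.70 (Batf3). On summed counts they were −0.16 to 0.041 (Irf8), −0.19 to 0.22 (Spi1), −1.06 to 0.092 (Cebpa) and −0.18 to 0.67 (Batf3). Without both W2 libraries the sign turned for Spi1 (matrix, −0.012; genotype in viscous gel, −0.089), Irf1 (difference, 0.033), Batf3 (genotype, −0.24 in viscous and −0.11 in elastic gel) and Irf8 (genotype in elastic gel, 0.057), and without both W1 libraries for Cebpa (genotype in viscous gel, 0.27). Upper-quartile scaling gave 0.0012 for Irf8 (genotype in elastic gel), and the summed Spi1 value was 0.00071 without a filter and 0.0056 under limma-voom. Leaving out 1 library keeps its number in 1 gel only, so differences between numbers enter the matrix values of such fits. Taken by number, Irf1, Irf4, Spi1, Cebpa, Cebpb and Batf3 each had the same sign in W1 and W2. For Irf4 these were −0.49 and −0.84, and for Cebpa 0.70 and 0.36. Irf4, Irf8, Spi1, Cebpa and Cebpb had opposite signs in J1 and J2. Other causes were not tested. For matrix over both genotypes Irf1, Irf5, Irf8, Klf4 and Batf3 kept their sign in all settings run. For genotype on summed counts Irf1, Irf4, Irf5, Cebpb and Klf4 did so.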
